A study of Danio rerio with 12 samples.

Results

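A set of 9 genes whose RNAs are known to be supplied by the mother to the zebrafish egg were followed through gastrulation. They were the transcription factor genes *nanog* and *pou5f3* and the germ plasm or germ cell genes *ddx4*, *nanos3*, *dazl*, *dnd1*, *tdrd7*, *piwil1* and *piwil2*. Every probe that the array annotation assigns to one of these 9 genes, under its present or an older symbol, was taken, which gave 23 of the 45220 probes on the array and 9 of its 13286 named genes. The older names were zgc:193933 for *nanog*, *pou5f1* for *pou5f3*, *vasa* for *ddx4* and *dnd* for *dnd1*, and *tdrd7* is now called *tdrd7a*. For 18 probes the accession led to the member gene. The *piwil2* probes, 1 *dnd1* probe and *tdrd7* probes 3 and 4 were matched through their symbol. Within a gene no probe was chosen by its values, but the 9 genes were chosen with earlier results of these data known.

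Nanog and Pou5f3 are maternally supplied transcription factors that, with SoxB1 factors, open and activate the genome of the early zebrafish embryo. The germ plasm is a store of maternal RNA and protein that is inherited by the few cells that become primordial germ cells. Maternal RNAs are broken down in the body of the embryo after the genome is activated, partly through deadenylation and microRNAs, while germ plasm RNAs are known to be protected in the germ cells. A whole-embryo array sums these cells, and in such samples fewer cells of a type and less RNA per cell cannot be told apart. No stage before genome activation was measured, so the maternal origin of the signal was not tested.

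The embryos were of the AB strain. Each sample was a pool of 200 whole embryos injected at the one-cell stage, taken at shield (6 hours post fertilization, hpf) or 90% epiboly (9 hpf). Control embryos received 0.75 pmol of a standard control morpholino (MO), an antisense oligonucleotide with no intended target, and double morphants received 0.5 pmol *tbx16* MO with 0.25 pmol *ta* MO, against a pair of T-box transcription factors of the mesoderm. An MO leaves the gene intact, and the extent of the knockdown was not measured on these arrays. The 4 groups held 3 pools each, and it is not stated whether these were separate clutches. The p-values reflect the variation among pools alone, which may be technical. The pools are numbered 1 to 3 in each group, and values below are given in that order.

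The values were normalized log2 signals, with array medians between 7.06 and 7.07 and correlations between arrays of one group between 0.966 and 0.990. A normalized signal is relative to the rest of the array, so a fall does not give the number of molecules lost. The signals of different probes are not set against each other as levels. Of 9 measured paraxial mesoderm markers, many of them known to depend on Tbx16 and Ta, 7 were lower in double morphants at shield and 8 at 90% epiboly (limma, adjusted p under 0.05). The *ta* transcript itself (*tbxta* in current names) was higher in double morphants, by 1.19 at shield and 1.81 at 90% epiboly on the log2 scale (limma, adjusted p = 0.0165 and 0.000248). The *tbx16* transcript differed by 0.54 at shield and 0.37 at 90% epiboly and did not pass (limma, adjusted p = 0.443 and 0.995). Over the 12 arrays the log2 of the summed signal ran from 17.4 to 18.1 for 9 enveloping layer genes, from 12.6 to 13.1 for 5 yolk syncytial layer genes, from 11.98 to 13.12 for 5 p53 response genes and from 17.9 to 18.3 for 8 housekeeping genes. The enveloping layer sum at 90% epiboly did not overlap, at 17.62 to 17.87 in double morphants and 17.98 to 18.11 in controls. The p53 sum fell from 12.66 to 13.03 at shield to 11.98 to 12.21 at 90% epiboly in controls. In double morphants it fell from 12.86 to 13.12 to 12.16 to 12.51. None of the single genes in these sums passed the test between double morphants and controls at either stage. Between stages in controls, 1 enveloping layer gene fell and 2 rose, and 2 yolk syncytial layer genes fell. There 1 p53 response gene fell, and 1 housekeeping gene fell and 1 rose (limma, adjusted p under 0.05). Over all probes 7.04% fell and 5.73% rose. A sum is weighted to its brightest genes and need not show such changes, so the sums are no stable reference.

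*nanog* gave the deepest decline of the member genes. On probe 1 the log2 signal of the control pools was 11.17, 13.10 and 12.76 at shield and 9.92, 9.52 and 9.30 at 90% epiboly. In double morphants it was 11.77, 13.39 and 13.25 at shield and 10.80, 10.38 and 10.40 at 90% epiboly. In both kinds of embryo every 90% pool lay below every shield pool, and the shield pool numbered 1 lay far below the other 2. The control change on probe 1 was -2.77 ± 0.47 (SE) on the log2 scale, which left 14.7% of the shield signal (limma, adjusted p = 0.0019). In double morphants it was -2.28 ± 0.47, which left 20.6% (limma, adjusted p = 0.00673).

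The other *nanog* probes repeated this pattern array by array, with correlations between probes of 0.995 to 0.997 over the 12 arrays. In controls the change was -2.88 on probe 2 and -2.99 on probe 3 (limma, adjusted p = 0.00254 and 0.00107). In double morphants it was -2.41 and -2.46 (limma, adjusted p = 0.00795 and 0.00395). All 3 probes target 1 transcript and are not independent measures of it.

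The low *nanog* signal in the shield pools numbered 1 was seen in both MO groups. On probe 1, pool 1 stood at -1.76 from the mean of the other 2 pools in controls and at -1.55 in double morphants, on the log2 scale. Of all 45220 probes, 143 (0.316%) were more than 1 lower in pool 1 than in the mean of the other 2 pools, in both groups. Among the members these were the 3 *nanog* probes. Another 166 of all probes (0.367%) were more than 1 higher in pool 1 in both groups. The 2 shield arrays numbered 1 correlated with the others of their groups at 0.967 and 0.972 on average, against 0.973 to 0.976 for the other shield arrays. Without both pools the fall of *nanog* probe 1 was -3.35 in controls and -2.80 in double morphants, both past the threshold (limma, adjusted p = 5.0e-06 and 1.6e-05).

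*pou5f3*, which encodes the POU-domain factor related to mammalian Oct4, fell from tightly grouped shield values. Probe 1 read 14.60, 14.58 and 14.75 in the control pools at shield and 13.41, 13.23 and 12.63 at 90% epiboly. In double morphants it read 14.67, 14.69 and 14.88 and then 13.91, 13.57 and 13.34. The stages did not overlap in either kind of embryo, and the shield pools numbered 1 did not stand apart as they did for *nanog*. The control change was -1.55 ± 0.21 on probe 1 and -1.51 ± 0.18 on probe 2, which left 34.1% and 35.0% of the shield signal (limma, adjusted p = 0.000455 and 0.000216). In double morphants the changes were -1.15 ± 0.21 and -1.09 ± 0.18, which left 45.2% and 46.8% (limma, adjusted p = 0.0034 and 0.00198).

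**Figure D1:**
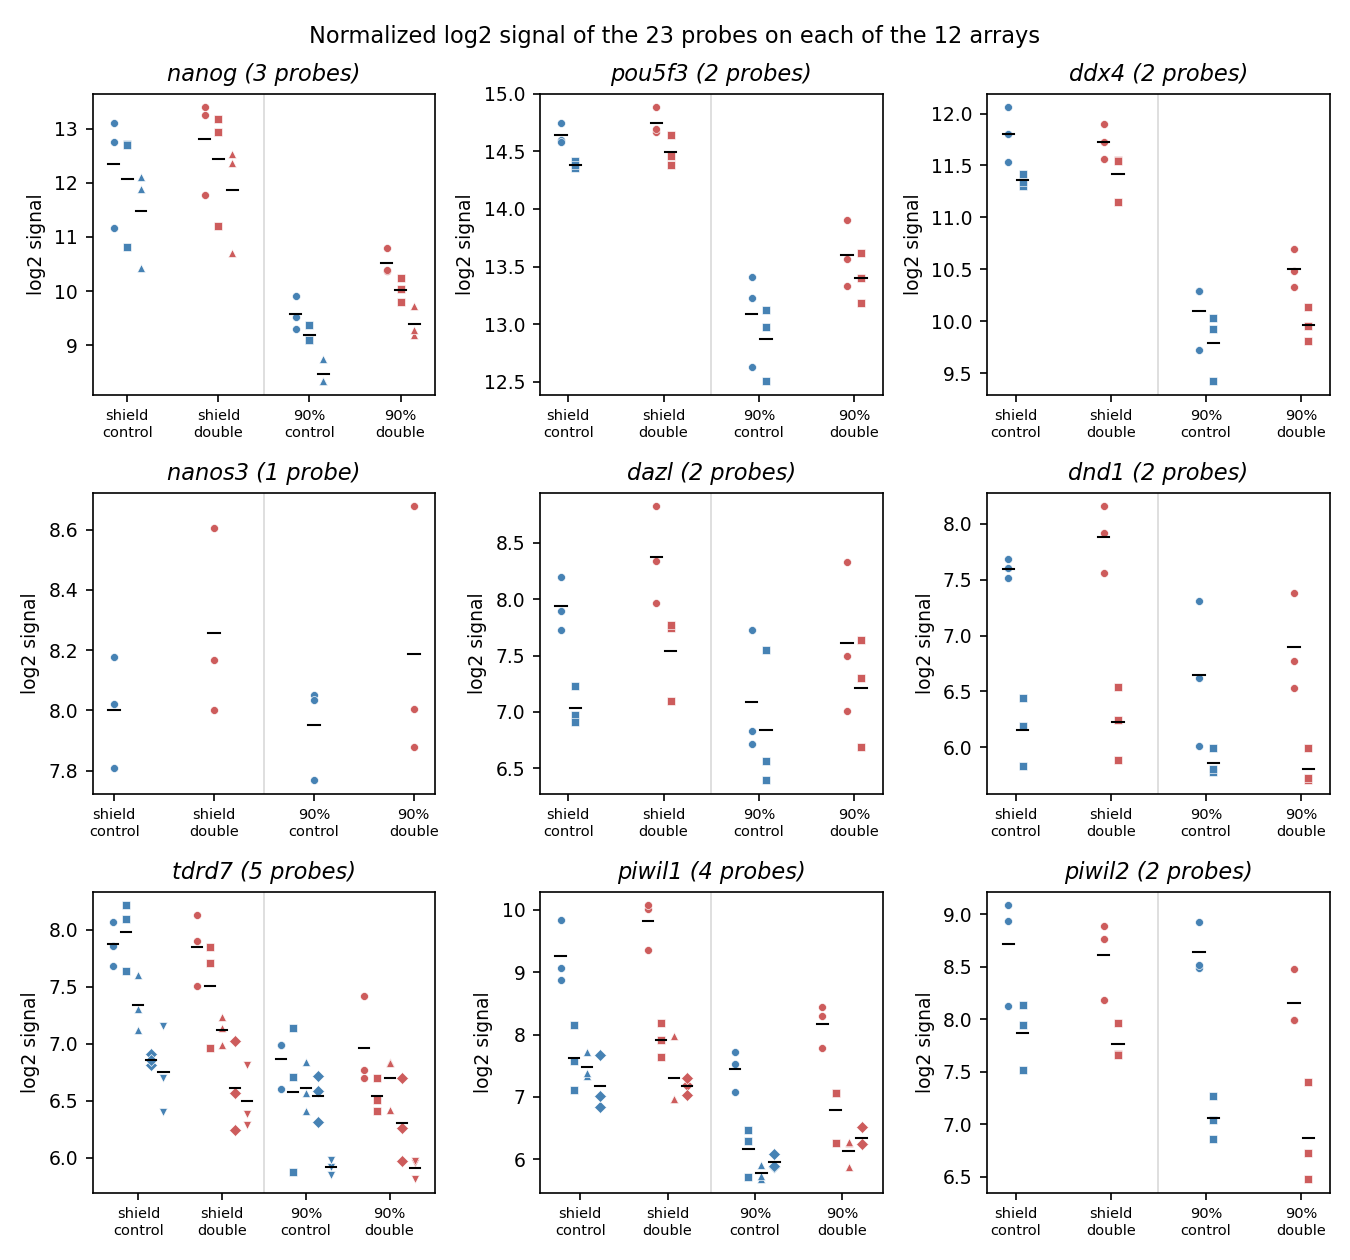
Normalized log2 signal (y axis) of every probe on every array, in 1 panel per gene with its own y range; blue points are control MO pools, red points double morphant pools, black lines the mean of 3 pools, and each marker shape is 1 probe. *nanog*, *pou5f3*, *ddx4* and *piwil1* fall at 90% epiboly on all their probes in both kinds of embryo, 1 *nanog* pool per shield group lies low, and *nanos3* stays between 7.77 and 8.68.

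Among the germ plasm genes, *ddx4* and *piwil1* fell on every probe in both kinds of embryo. *ddx4* encodes Vasa, the RNA helicase that marks germ plasm and germ cells. Its probe 1 read 11.54, 12.06 and 11.80 in control shield pools and 10.29, 10.29 and 9.72 in control 90% pools. The double morphants read 11.56, 11.72 and 11.90 and then 10.70, 10.48 and 10.33. Again no 90% pool reached the range of the shield pools. The change was -1.70 ± 0.20 in controls, which left 30.8% of the signal (limma, adjusted p = 0.0002), and -1.22 ± 0.20 in double morphants, which left 42.8% (limma, adjusted p = 0.00178). On probe 2 the changes were -1.56 and -1.45, both past the threshold, and the probes correlated at 0.984 over the 12 arrays.

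*piwil1* encodes Ziwi, a PIWI protein that binds small RNAs against transposons in the germ line. Its probe 1 read 8.88, 9.06 and 9.84 in control shield pools and 7.54, 7.71 and 7.07 in control 90% pools. Double morphant pools read 10.01, 9.35 and 10.07 and then 8.29, 8.45 and 7.79. The stages did not overlap on any of the 4 probes in either kind of embryo. Over the 4 probes the change ran from -1.82 to -1.22 in controls and from -1.64 to -0.84 in double morphants, and all 8 values passed the threshold (limma, adjusted p from 0.000745 to 0.0257). In control 90% pools probes 2, 3 and 4 averaged 6.16, 5.78 and 5.95, under 6.56, the 40th percentile of the probe means. Log2 differences at such dim signals may be too small. In double morphants probes 2 and 4 lost the call when single pools were left out, with adjusted p between 0.0514 and 0.12 (limma).

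*tdrd7*, which encodes a Tudor domain protein of germ granules, gave different results on different probes. Its probes 3 and 4 were annotated with another transcript record than probes 1, 2 and 5. Whether all 5 read the same transcript was not tested. Probe 1 read 7.68, 7.86 and 8.07 in control shield pools and 6.99, 6.99 and 6.60 at 90% epiboly. In double morphants it read 7.51, 7.90 and 8.13 and then 7.42, 6.70 and 6.77. The stages did not overlap in controls or in double morphants, although pool 1 of the 90% double morphants came close to the lowest shield pool. In controls *tdrd7* probes 1, 2, 3 and 5 fell, with changes of -1.01, -1.41, -0.73 and -0.83, and probe 4 was at -0.32 ± 0.22 (limma, adjusted p = 0.415). In double morphants only probe 1 passed, at -0.88 ± 0.23 (limma, adjusted p = 0.0215), and probe 2 just missed the threshold at -0.97 ± 0.30 (limma, adjusted p = 0.052). The difference between the stage changes of the 2 kinds of embryo ran from 0.02 to 0.44 over the 5 probes and did not pass on any. Correlations between the *tdrd7* probes ran from 0.318 to 0.899 over the 12 arrays, and probe 5 was dim, with a mean under 6.56, the 40th percentile of all probes. Probe 4 had a mean of 6.58, and at 90% epiboly it averaged 6.54 in controls and 6.31 in double morphants. Probe 2 averaged 6.54 in double morphants at 90% epiboly. Log2 differences at such dim signals may be too small.

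*piwil2*, which encodes the other zebrafish PIWI protein Zili, was split between its probes. Probe 2 read 7.52, 7.94 and 8.14 in control shield pools and 7.27, 7.04 and 6.86 at 90% epiboly. The double morphants read 7.67, 7.66 and 7.96 and then 6.73, 7.40 and 6.48. The stages did not overlap, and the change of -0.81 ± 0.24 in controls and -0.89 ± 0.24 in double morphants passed the threshold (limma, adjusted p = 0.0393 and 0.0255). Probe 1 overlapped between stages in both, with changes of -0.07 ± 0.27 and -0.46 ± 0.27 (limma, adjusted p = 0.914 and 0.3). The probes correlated at 0.605, and which of them reads the transcript better was not tested.

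*dnd1* encodes Dead end, an RNA-binding protein that shields germ cell RNAs from microRNAs. Probe 1 read 7.51, 7.60 and 7.69 in control shield pools and 7.31, 6.62 and 6.01 at 90% epiboly. Double morphant pools read 7.56, 8.16 and 7.92 and then 7.38, 6.77 and 6.53. No 90% pool reached the shield range in either kind of embryo, but the spread at 90% epiboly was wide. The 2 changes, -0.95 ± 0.30 in controls and -0.99 ± 0.30 in double morphants, fell on opposite sides of the threshold (limma, adjusted p = 0.0521 and 0.0438), and their difference was -0.04 ± 0.42. Probe 2, which was dim, gave -0.30 ± 0.20 and -0.42 ± 0.20 and passed in neither.

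*nanos3* and *dazl* did not pass the test in either kind of embryo. *nanos3* encodes an RNA-binding repressor of translation that germ cells need to survive. Its single probe read 8.02, 8.18 and 7.81 in control shield pools and 8.05, 8.03 and 7.77 at 90% epiboly. In double morphants it read 8.17, 8.61 and 8.00 and then 8.68, 7.88 and 8.00. The stages overlapped fully. The change was -0.05 in controls with a 95% interval from -0.54 to 0.44, and -0.07 in double morphants with an interval from -0.56 to 0.41, on the log2 scale.

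*dazl* encodes a germ plasm protein that promotes translation of the RNAs it binds. Its probe 1 read 8.19, 7.90 and 7.73 in control shield pools and 6.72, 7.73 and 6.83 at 90% epiboly. The double morphants read 8.34, 8.83 and 7.97 and then 8.33, 7.50 and 7.01. The overlap came from 1 high pool at 90% epiboly in each kind of embryo, number 2 in controls and number 1 in double morphants. The change was -0.85 ± 0.34 and -0.77 ± 0.34 (limma, adjusted p = 0.128 and 0.165), and neither passed. Without the high pool the control change was -1.17 and did not pass (limma, adjusted p = 0.056), and the double morphant change was -1.12 and passed (limma, adjusted p = 0.0491). The pool left out was picked for its high value after seeing the data, so a deeper fall was fixed in advance. In double morphants this was the only 1 of 22 alternatives in which the call changed. Probe 2 read between 6.91 and 7.77 at shield and between 6.39 and 7.64 at 90% epiboly, with changes of -0.20 and -0.33 that did not pass.

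**Figure D2:**
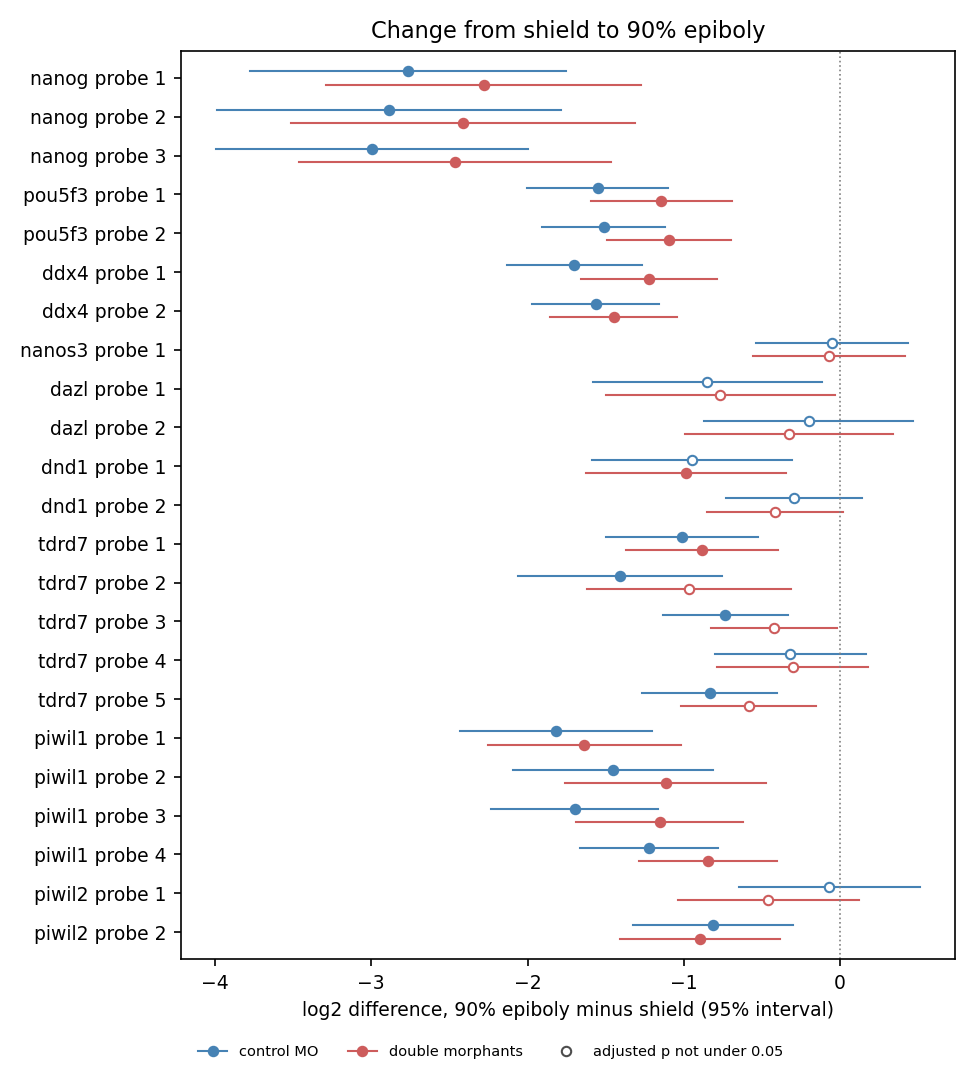
Log2 difference of 90% epiboly minus shield (x axis, with its 95% interval) for the 23 probes, in control MO embryos (blue) and double morphants (red); filled points have an adjusted p under 0.05. All points lie below 0, from -2.99 for *nanog* probe 3 to -0.05 for *nanos3* in controls, and the control and double morphant intervals overlap on every probe.

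In controls 16 of the 23 member probes were lower at 90% epiboly and 0 were higher, where 7.04% of all probes were lower, 5.73% higher and 12.8% changed in either direction (limma, adjusted p under 0.05). Their median change was -1.22, beside 0.00 for all probes. By groups that do not overlap, 18 of the 23 were lower, against 15% of all probes. Counted by the brightest probe of each gene, 5 of 9 genes fell. In double morphants 14 of the 23 probes were lower and 0 higher, where 6.79% of all probes were lower, 6.28% higher and 13.1% changed in either direction, with a median of -0.97 beside -0.01. There 17 of the 23 were lower with no overlap between stages, against 16.5% of all probes lower in this way, and 6 of 9 genes fell. All 23 fitted changes were below 0 in controls, and all 23 in double morphants, beside 22444 and 23201 of all 45220 probes. By role, the 5 *nanog* and *pou5f3* probes fell in both kinds of embryo, and of the 18 germ plasm probes 11 fell in controls and 9 in double morphants. The shares beside these counts are over probes. No share over all named genes is given for the counts by gene, so these cannot be set against a background. As the 9 genes were chosen with earlier results of these data known, all these counts are a description and no test of the set.

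When single pools were left out, 12 of the 16 control calls and 9 of the 14 double morphant calls held each time. The control calls lost at least once were *tdrd7* probes 1, 3 and 5 and *piwil2* probe 2. In double morphants they were *dnd1* probe 1, *tdrd7* probe 1, *piwil1* probes 2 and 4 and *piwil2* probe 2. Leaving out pool 3 of the double morphants at either stage left 9 calls in place of 14.

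The difference between the decline in double morphants and that in controls was tested as the interaction of stage and MO. None of the 23 probes passed, where 0.287% of all probes did (limma, all adjusted p = 1.00). An unadjusted p under 0.05 was found for 0 of the 23 and for 1704 of all 45220 probes (limma). The fitted difference was above 0, a shallower decline in double morphants, on 17 of the 23 probes and on 22803 of all 45220 probes. Its median was 0.25 beside 0.00 for all probes. Probes of 1 gene are not independent, so the 17 are fewer separate measures. The difference was 0.48 for *nanog* probe 1 with a 95% interval from -0.94 to 1.91, and 0.42 for *pou5f3* probe 2 with an interval from -0.14 to 0.98. For *ddx4* probe 1 it was 0.48 with an interval from -0.14 to 1.09. These intervals include no difference as well as differences of over 1 on the log2 scale for *nanog* and *ddx4*. The fit did not pair pools by number, so the low *nanog* signal of both shield pools numbered 1 counts as spread in the *nanog* interval. Without both shield pools numbered 1, an alternative chosen after seeing the data, the *nanog* differences were 0.55, 0.48 and 0.47. Leaving out pool 1 of the shield double morphants alone, which keeps the low control pool, gave -0.03, -0.15 and -0.05. Leaving out pool 1 of the shield controls alone, which keeps the low double morphant pool, gave 1.07, 1.10 and 1.05.

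At shield, double morphants and controls overlapped on all 23 probes, where 11.6% of all probes did not overlap. None passed the test, against 0.484% of all probes (limma, lowest adjusted p = 0.614). An unadjusted p under 0.05 was found for 0 of the 23 and for 4053 of all 45220 probes (limma). The shield pools of the same number deviated together, with correlations of 0.342, 0.348 and 0.297. Within numbers, *nanog* probe 1 was higher in double morphants by 0.60, 0.29 and 0.49 on the log2 scale, and probes 2 and 3 by 0.23 to 0.48. An alternative chosen after seeing the data took the number as a block and only the shield arrays. The *nanog* probe 1 difference was then 0.46 ± 0.16 (limma, adjusted p = 0.398, unadjusted 0.0228). Still none of the 23 passed, where 62 of all 45220 probes were lower and 30 higher past the threshold. Of the 23, 5 had an unadjusted p under 0.05 in that fit. No count over all probes is given at this level, so the 5 cannot be set against a background. These 5 were *nanog* probes 1 and 3, *dazl* probe 2, *piwil1* probe 1 and *tdrd7* probe 2. Within numbers *nanog* probe 3 was higher by 0.27, 0.43 and 0.48 (limma, adjusted p = 0.444). *dazl* probe 2 was higher by 0.51, 0.80 and 0.19 (limma, adjusted p = 0.414). *piwil1* probe 1 was higher by 1.14, 0.29 and 0.23 (limma, adjusted p = 0.45). *pou5f3* differed by 0.03 to 0.23 within numbers. *tdrd7* probe 2 went the other way, lower in double morphants by 0.37 to 0.68 within numbers, and did not pass either (limma, adjusted p = 0.392).

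At 90% epiboly *nanog* read higher in double morphants, without passing the test. All double morphant pools lay above all control pools on the 3 *nanog* probes, from 10.38 to 10.80 against 9.30 to 9.92 on probe 1. The difference was 0.95 ± 0.47 on probe 1, 0.83 ± 0.51 on probe 2 and 0.92 ± 0.46 on probe 3 (limma, adjusted p = 0.933, 1.00 and 0.943). The spread in this fit is shared by all 4 groups and holds the low *nanog* signal of the shield pools numbered 1. An alternative chosen after seeing the data left out those 2 shield arrays. The 3 differences use the 90% epiboly arrays alone, so their size could not change. Probes 2 and 3 then passed (limma, adjusted p = 0.042 and 0.049), while probe 1 did not (limma, adjusted p = 0.0553). With only the 90% epiboly arrays in the fit the adjusted p was 0.117, 0.0867 and 0.114 (limma), and over all alternatives it ran from 0.042 to 1.00. The side of the threshold on which *nanog* fell thus changed with the arrays in the fit.

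*pou5f3* at 90% epiboly differed by 0.51 ± 0.21 and 0.53 ± 0.18 (limma, adjusted p = 0.745 and 0.511), with 95% intervals from 0.06 to 0.97 and from 0.13 to 0.92 before adjustment for the number of probes. The groups did not overlap on probe 2, where double morphants read 13.61, 13.40 and 13.19 and controls 12.98, 13.13 and 12.51. *piwil1* differed by 0.73 ± 0.29 on probe 1 and by 0.36 to 0.63 on the others, and *ddx4* by 0.41 and 0.18, none past the threshold. *piwil2* probe 1 went the other way, at -0.49 ± 0.27, with double morphants at 7.99, 8.48 and 7.99 and controls at 8.49, 8.52 and 8.93.

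Over all members, 7 of 23 probes were higher in every double morphant pool at 90% epiboly and 1 was lower, against 7.09% and 7.02% of all probes. The 7 were the *nanog* probes, *pou5f3* probe 2, *ddx4* probe 1 and *piwil1* probes 1 and 4, and the lower one was *piwil2* probe 1. None of the 23 passed, against 0.705% of all probes (limma, lowest adjusted p = 0.511). An unadjusted p under 0.05 was found for 3 of the 23 and for 2555 of all 45220 probes (limma). The median difference was 0.36 beside 0.00 for all probes, and 17 of 23 were above 0, as were 23023 of all 45220 probes. Each of these differences shares its arrays with the stage changes above and is no separate evidence on them.

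**Figure D3:**
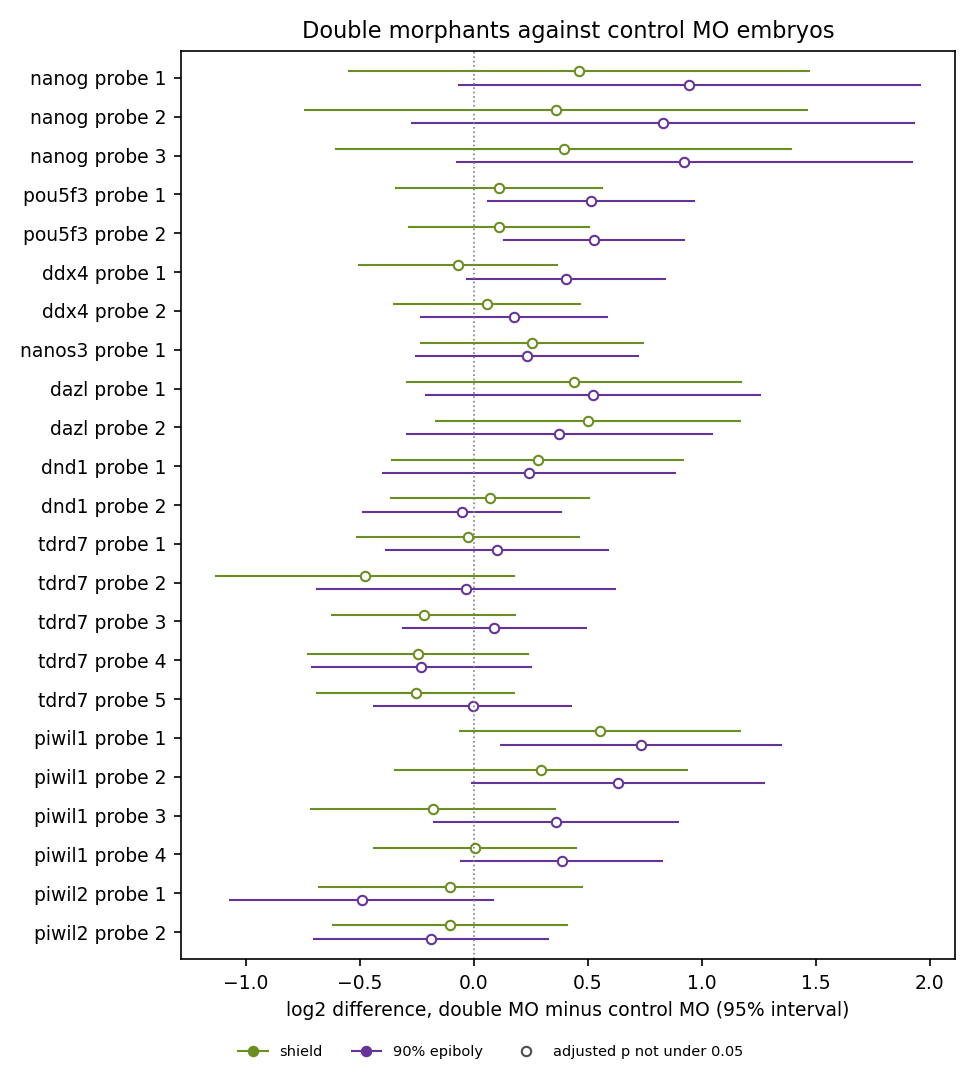
Log2 difference of double MO minus control MO (x axis, with its 95% interval) for the 23 probes at shield (green) and 90% epiboly (purple); every point is open, as none had an adjusted p under 0.05. At 90% epiboly *nanog* (0.83 to 0.95), *piwil1* (0.36 to 0.73) and *pou5f3* (0.51 and 0.53) lie to the right of 0 and *piwil2* probe 1 (-0.49) to the left.

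Genes of related function were taken from 5 lists, each gene by its brightest probe. The lists were also chosen with earlier results of these data known. Their counts stand beside 7.04% of all probes lower and 5.73% higher in controls, and 6.79% lower and 6.28% higher in double morphants. No gene of the 5 lists had an interaction of stage and MO that passed, so unequal counts do not show that a list differs between the kinds of embryo. Of 22 other germ plasm and piRNA genes, 15 were measured, and 5 fell in controls and 4 in double morphants, with 0 higher and a median of -0.66 in both. *rbpms2b*, an RNA-binding protein gene of the germ plasm, had the largest fall among those past the threshold, with changes of -1.52 in controls and -1.28 in double morphants (limma, adjusted p = 0.000928 and 0.00317). *tdrd1*, a Tudor domain gene, changed by -0.96 in controls and stood at -0.38 ± 0.24 in double morphants (limma, adjusted p = 0.0186 and 0.337). *rbpms2b* was the only gene of the 5 lists past the threshold between double morphants and controls. It was higher by 1.37 ± 0.23 at 90% epiboly (limma, adjusted p = 0.00979) and stood at 1.12 ± 0.23 at shield (limma, adjusted p = 0.0552). List genes with no probe under their name are not analysed here, and *ca15b* stands in both the germ plasm and the oocyte list.

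Of 12 other early transcription factor genes, 10 were measured, and 6 fell in controls and 2 in double morphants. In controls the change was -1.32 for *sox3*, a SoxB1 gene, and -1.18 for *foxh1*, a Nodal pathway cofactor gene (limma, adjusted p = 0.000809 and 0.00117), and both also fell in double morphants, at -1.01 and -0.91. Of 6 early targets of Nanog or Pou5f3, 2 fell in controls, *vent* at -0.87 and *foxd3* at -0.80, and 3 in double morphants.

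Of 15 oocyte and egg genes, 12 were measured, and 5 fell and 1 rose in controls, while 7 fell and 0 rose in double morphants. *btg4*, an adaptor of the deadenylase complex in eggs, fell in both, at -1.16 in controls and -1.81 in double morphants, as did *zp3*, an egg coat gene, at -0.91 and -0.77. *fbxo43*, a meiotic regulator gene, rose by 0.77 in controls and stood at 0.60 ± 0.21 in double morphants (limma, adjusted p = 0.0307 and 0.0801). Of 22 genes of RNA clearance, 20 were measured, and 3 fell and 1 rose in controls and 4 fell and 1 rose in double morphants, with a median of -0.09 and -0.07. The deadenylase genes *cnot8* and *cnot7* moved in opposite directions, -1.61 ± 0.20 and 1.66 ± 0.17 in controls (limma, adjusted p = 0.000297 and 6.6e-05), and *xrn1*, an exonuclease gene, fell by 1.14 on the log2 scale.

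**Figure D4:**
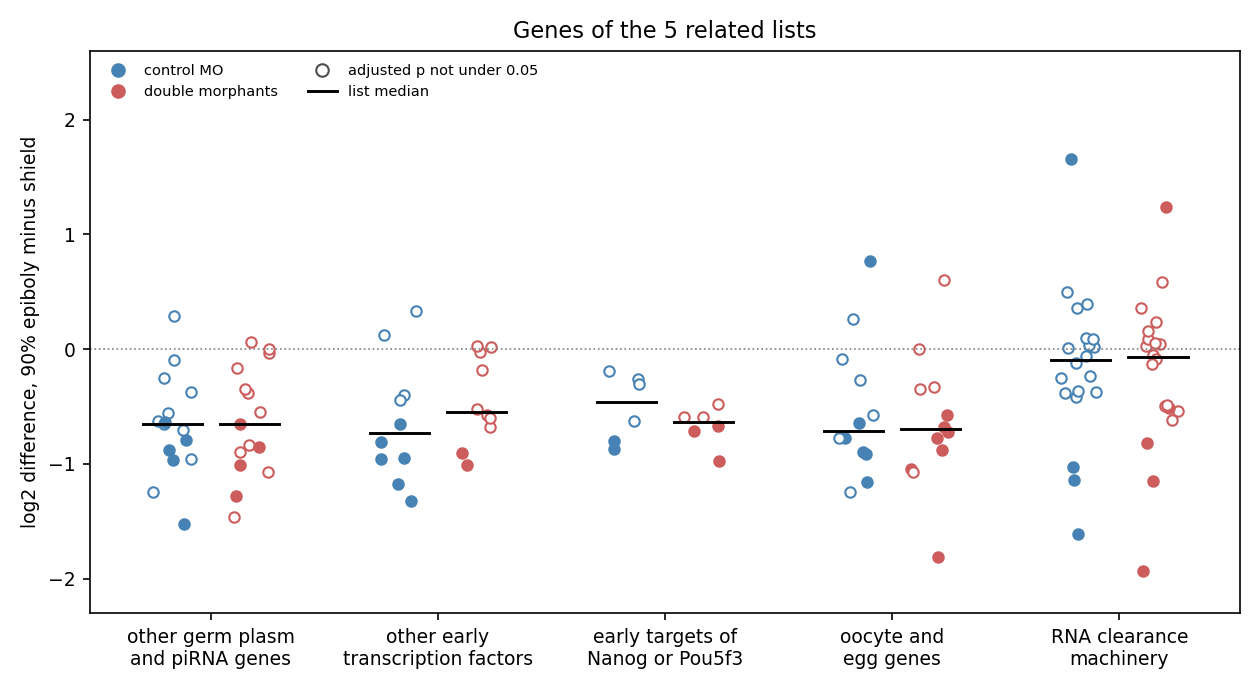
Log2 difference of 90% epiboly minus shield (y axis) for the measured genes of 5 related lists (x axis) in control MO embryos (blue) and double morphants (red), with filled points for an adjusted p under 0.05 and black lines for list medians. All list medians lie below 0 in controls and double morphants: germ plasm genes at -0.66 in both, early transcription factors at -0.73 and -0.55, early targets at -0.46 and -0.63, oocyte genes at -0.71 and -0.70, and RNA clearance genes at -0.09 and -0.07, and *cnot7* is highest at 1.66 in controls.

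The genes whose signal followed a member most closely over the 12 arrays are given as a description, with Pearson's r over 12 arrays of 4 groups that share the stage change and with no p. For *nanog* they were *pkma* (r = 0.989), *cth1* (0.987), *mkrn4* (0.983), *cyp17a1* (0.983) and *cldng* (0.978). For *pou5f3* they were *bnip3lb* (0.988), *acsf2* (0.983), zgc:66472 (0.980), *ptgs2b* (0.980) and *stap2a* (0.978). For *ddx4* they were zgc:113054 (0.989), *acsf2* (0.986), *oclna* (0.984), *bnip3lb* (0.983) and *mixl1* (0.982). *acsf2* and *bnip3lb* stood in both of the last lists. Of 13277 other genes, 366, 360 and 451 had an r over 0.9 with *nanog*, *pou5f3* and *ddx4*, so an r over 0.9 was not particular to the genes named.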

How the data were processed

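Whole-embryo RNA was labelled with a single dye and hybridised to Agilent zebrafish gene expression arrays, version 3. The authors deposited log2 values of 45220 probes for 12 arrays, normalized between arrays. The sources used here do not give the background correction, normalization method or software, so how far a low signal lies above background is unknown, and log2 differences of dim probes may be too small. Every column of values had a sample (0 without). The number of arrays limits the precision.

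In R 4.3.3, limma 3.58.1 fitted the group means over the 12 arrays (8 residual and 5.32 prior degrees of freedom), with no filter on probes. Benjamini-Hochberg adjustment covered every probe of a comparison, and the threshold was 0.05. The fit was tested on simulated data. Older symbols were matched through RefSeq accessions and symbols. Array probes named *nos1* are nitric oxide synthase by accession and were left out. All member probes are named, and from each related list up to 2 genes that fell most and 2 that rose most among those past the threshold in controls. The members and lists were chosen with earlier results of these data known. The main fit had no pairs or blocks. Same-numbered pools were judged to be pairs at shield only, by their correlations, and pairing entered alternative fits only. Figures were drawn in matplotlib 3.10.9 under Python 3.11.15.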

Additional observations from a re-analysis of the deposited data

How the results depend on the processing

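The counts of member probes that fell (16 in controls, 14 in double morphants) stayed within 14 to 18 under quantile, cyclic loess and median normalization, without dim probes, with trend and robust variance, array weights, only the arrays compared, the replicate block, and without both shield pools numbered 1 (chosen after seeing the data). Over these settings 2498 to 4697 of all probes were lower in controls and 2731 to 3876 in double morphants. The number tested was 45220, or 27132 without dim probes. Counts of genes stayed at 5 to 7 of 9, with no share over all named genes to set beside them. Student's test gave 0 member probes and 0 genes in both, where it called only 128 of all 45220 probes in controls and 473 in double morphants. In each, 16 member probes had an unadjusted p under 0.05. No count over all probes is given at that level, so the 16 cannot be set against a background. Student's test was not run on the interaction. Leaving out single pools gave 12 to 17 probes in controls and 9 to 16 in double morphants, and 4 to 6 and 4 to 7 genes. Of all 45220 probes, 1846 to 3426 were then lower in controls and 1650 to 3434 in double morphants. Between MO groups and in the interaction every alternative gave 0 member probes but 1: without both shield pools numbered 1, 2 *nanog* probes passed at 90% epiboly. With the replicate block the counts were 16 and 14 for the stage changes and 0 for the MO contrasts. This block takes a number to mean the same at both stages. Across stages the same-numbered pools correlated at -0.202 to -0.0346 in controls and at -0.153 to 0.0790 in double morphants. The unchanged counts therefore cannot show whether pairing within a stage matters. At 90% epiboly the same-numbered pools correlated at 0.197, 0.0765 and 0.414 and were not treated as pairs. Each value lay above the highest with another number, at 0.0186, 0.0313 and -0.0952. A fit with pairs was not run on the 90% epiboly arrays alone, so its effect there was not tested.

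No value past the threshold turned its sign. Signs turned in 100 of 2497 recomputed values, none past the threshold either way, 84 of them with 1 pool left out. Among these, without pool 1 of the shield controls alone the 3 *nanog* differences at shield were -0.13, -0.27 and -0.12. Without pool 1 of the shield double morphants alone they kept their sign, at 0.98, 0.98 and 0.97. Without both shield pools numbered 1 they were 0.39, 0.35 and 0.45, beside 0.46, 0.36 and 0.39 over all pools.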
